A study of Homo sapiens with 12 samples.

Results

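ATF4 is the transcription factor that carries out the amino acid stress response, and the genes described here are 35 named genes of that response: ATF4 itself, its partner factors, and genes it is known to switch on. A gene was taken as measured where the array table holds a row annotated to that symbol alone, and the brightest such row was used. On that rule 32 of the 35 were measured, out of 14232 genes with a row of their own. PSPH, a serine synthesis enzyme, shares its row with another gene and is not analysed here. ALDH1L2 and GPT2 had no row under the rule. The members were picked by name, with earlier results of these data known.

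The cells were HEK293, an established human embryonic kidney line, transfected by lipofection and collected 48 hours later by a 20 minute sort for living, GFP-positive cells. There were 4 groups of 3 biological replicates, 12 arrays in all. The first made full-length MED12 and the second made MED12 lacking its C-terminal PQL and Opa domains (called PQL/Opa-deleted here), each with an engineered Kozak sequence and an N-terminal nuclear GFP tag in pcDNA5/TO. The third made a hairpin against endogenous MED12 (shRNA 5) from the H1 promoter of peGFP-C1, and the fourth made nuclear GFP alone in pcDNA5/TO. The hairpin vector therefore differs from that of its GFP control, a single hairpin was used, and the labels name no control hairpin. MED12 is a subunit of the Mediator kinase module, which helps transcription factors and RNA polymerase II work together. The series design compares each perturbed group with GFP. Full-length MED12 was also compared with the deleted form, and the shRNA with full-length MED12.

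In the amino acid stress response, kinases such as GCN2, PERK, PKR and HRI phosphorylate the translation factor eIF2. General translation then drops while translation of the ATF4 transcript goes up, so ATF4 protein is set largely by translation and only partly by the transcript level that an array reads. ATF4 binds composite C/EBP-ATF elements, often with a C/EBP partner, and raises genes for amino acid synthesis, amino acid import and tRNA charging, as well as feedback genes that damp the response.

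Promoters were searched for the C/EBP-ATF element in the form TGATGNAA, on both strands, from 250 bases before to 50 bases after each start site in RefSeq's table (build GRCh38.p14). It was present in 6 of the 29 members with an entry (20.7%), namely ASNS, SLC3A2, SLC7A1, CHAC1, AARS1 and NARS1, and in 3.67% of all 27305 promoters. This is a description of letters, and a window without them says nothing about binding. The element lay before the start site in 3 of the 6, and those 3 are shown because they place the known ATF4 element beside the values of the gene. DDIT4 is printed with them because its values differed most between groups; its window held no match. Each line gives the 250 bases before the start site, 5′ to 3′ on the gene's strand, with the element in capitals.
ASNS (chr7:97872409-97872658, minus strand): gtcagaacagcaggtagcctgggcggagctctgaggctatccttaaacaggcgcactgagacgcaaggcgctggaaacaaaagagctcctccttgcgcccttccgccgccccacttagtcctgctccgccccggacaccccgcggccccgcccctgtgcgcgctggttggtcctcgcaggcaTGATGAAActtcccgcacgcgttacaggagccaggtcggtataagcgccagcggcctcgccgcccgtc
CHAC1 (chr15:40953221-40953470, plus strand): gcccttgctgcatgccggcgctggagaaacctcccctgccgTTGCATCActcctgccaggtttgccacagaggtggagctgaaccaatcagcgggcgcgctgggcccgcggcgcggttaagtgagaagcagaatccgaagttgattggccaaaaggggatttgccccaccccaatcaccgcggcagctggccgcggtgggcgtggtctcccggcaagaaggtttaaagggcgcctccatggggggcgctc
AARS1 (chr16:70289507-70289756, minus strand): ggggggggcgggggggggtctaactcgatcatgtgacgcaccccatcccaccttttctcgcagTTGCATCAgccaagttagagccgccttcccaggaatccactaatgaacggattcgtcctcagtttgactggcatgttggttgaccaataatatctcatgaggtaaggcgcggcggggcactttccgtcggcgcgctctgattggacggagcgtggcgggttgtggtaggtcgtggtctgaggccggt
DDIT4 (chr10:72273674-72273923, plus strand): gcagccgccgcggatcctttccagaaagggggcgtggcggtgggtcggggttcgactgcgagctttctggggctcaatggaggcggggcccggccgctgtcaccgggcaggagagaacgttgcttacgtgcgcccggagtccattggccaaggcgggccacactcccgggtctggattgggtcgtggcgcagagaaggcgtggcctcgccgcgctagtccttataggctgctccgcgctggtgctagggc
The element began 68 bases before the start site in ASNS, 209 in CHAC1 and 187 in AARS1, in CHAC1 and AARS1 on the opposite strand.

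The values are log2 intensities from 1-colour arrays, 1 per row and array. Each comparison was tested over all 22011 rows with limma, a linear model that moderates each row's spread, and a row was called where its Benjamini-Hochberg adjusted p was under 0.05. MED12 itself averaged 10.68 with full-length MED12, 8.92 with the PQL/Opa-deleted construct and 3.67 with the shRNA, against 4.41 with GFP. The shRNA difference, -0.75 ± 0.20 (SE) on the log2 scale, was not called (limma, adjusted p = 0.730), although no shRNA value (3.63 to 3.74) reached the lowest GFP value (4.03). The 10 HEK293-expressed marker genes averaged between 4.44 and 4.88 per array, and the measured markers of leukocytes, fibroblasts, mature kidney epithelium and hepatocytes averaged between 2.02 and 3.43. Single markers overlapped. Over all arrays the hepatocyte marker APOA1 (4.09) and the fibroblast marker COL1A1 (3.83) averaged above the HEK293-expressed KRT18 (3.42) and ENO2 (3.57). Arrays differed in how widely their values spread, with SDs between 1.34 (shRNA replicate 1) and 1.60; GFP replicate 1 had 1.40.

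No member was called in any of the 5 comparisons, nor in an F test of whether a row differs anywhere among the 4 groups (limma, 0 of 32 in each). Of all rows, 0.0863% were called by the F test, so a call is rare in this experiment for any row. When arrays were weighted by their estimated quality, 13 members were called for the shRNA minus GFP, 8 for the shRNA minus full-length MED12 and 16 by the F test. The same fit called 25.9% of all rows for the shRNA minus GFP, 15.4% for the shRNA minus full-length MED12 and 28.9% by the F test. It gave shRNA replicate 3 a weight of 8.77 and the other shRNA arrays 0.29 and 0.42, so the shRNA group rested mainly on 1 array. At an unadjusted p under 0.05 the F test picked 2 members, DDIT4 and CEBPG, of 32, and 3.11% of all genes. In bulk RNA, fewer cells of a kind and less RNA per cell cannot be told apart. Every member's estimate lay within a 2-fold change of GFP. The unadjusted 95% interval of the log2 difference lay inside -1 to 1 for 29 of 32 members with full-length MED12, 30 with the deleted construct and 26 with the shRNA. The SE of a member's difference was 0.24 at the median, from 0.13 to 0.40. Many of these differences depended on which arrays were in the fit. The main fit did not pair same-numbered arrays, although their deviations from the group means were correlated. The correlation was 0.472 for replicate 1 of the deleted construct and GFP, and 0.464 for replicate 1 of the shRNA and GFP. Leaving out 1 array keeps its same-numbered partner in the other group, so a moved difference need not rest on 1 array. Leaving out 1 array at a time moved the difference from GFP by over 1.5 times, or turned its sign, in 28 of 32 members with full-length MED12, 26 with the deleted construct and 30 with the shRNA, and the sign turned in 16, 15 and 11 of them. These counts were not taken over all genes, so they do not set the members apart.

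**Figure D1:**
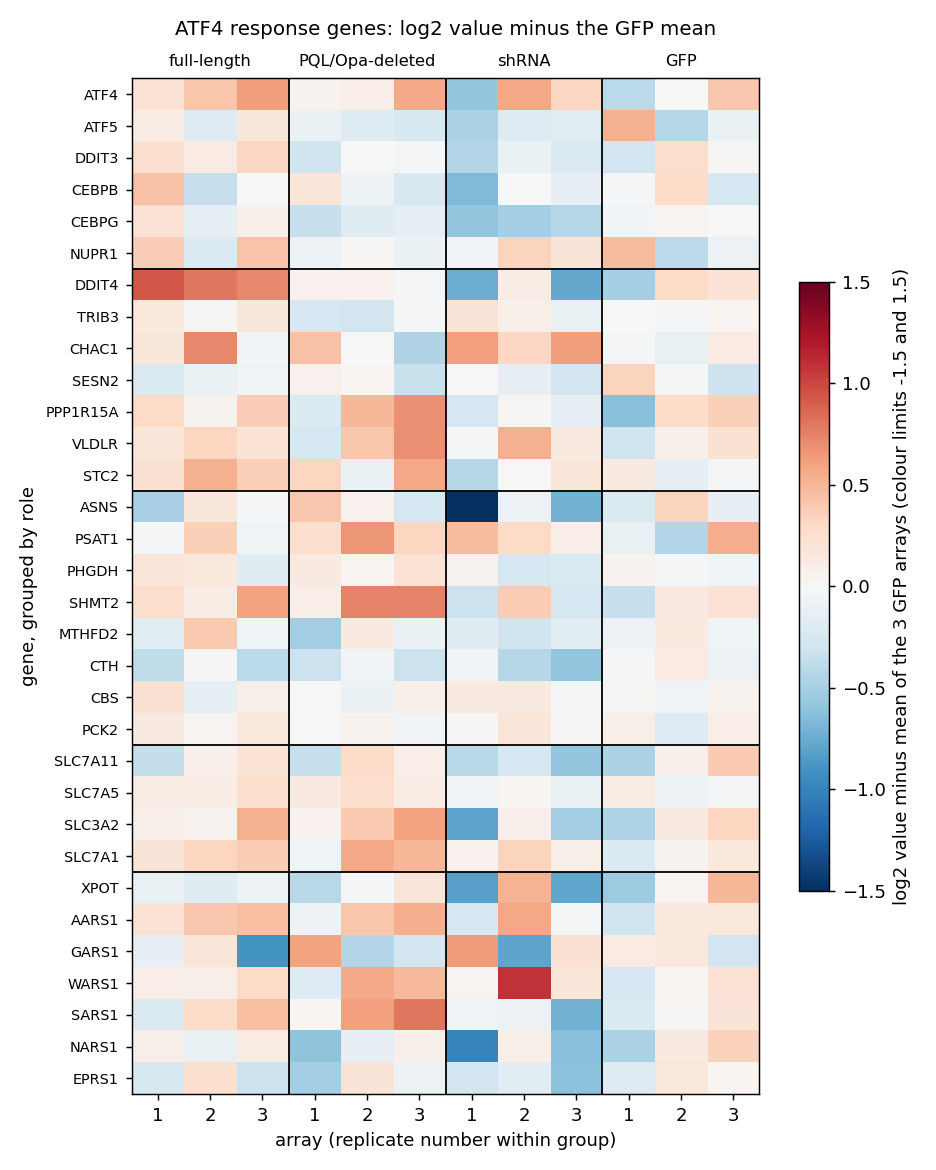
Difference of each log2 value to the GFP average for the 32 measured ATF4 response genes (rows, in blocks of transcription factors, feedback and stress genes, synthesis enzymes, transporters, and tRNA charging genes) in each of the 12 arrays (columns, by group and replicate). Red is above and blue below the GFP mean, with colours held at -1.5 and 1.5; DDIT4 is red in all 3 full-length arrays, CEBPG is blue in all 3 shRNA arrays, and the bluest cell is ASNS in shRNA replicate 1.

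The transcription factors include ATF4 itself. The ATF4 transcript was 4.73, 4.93 and 5.14 with full-length MED12, 4.56, 4.61 and 5.09 with the deleted construct and 3.92, 5.10 and 4.82 with the shRNA, against 4.11, 4.51 and 4.92 with GFP. Every group overlapped GFP, and the shRNA arrays held the lowest value, 3.92, and also one at 5.10. Its log2 difference from GFP was 0.42 ± 0.30 (SE) with full-length MED12, 0.24 ± 0.30 with the deleted construct and 0.10 ± 0.30 with the shRNA (limma, adjusted p = 1.00 in each). Without GFP replicate 1 the first was 0.22 and the second 0.04, and without shRNA replicate 2 the third was -0.14. Each full-length and deleted-construct value lay above its same-numbered GFP value, and the shRNA value did so only in replicate 2.

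CEBPG, a C/EBP factor that pairs with ATF4, gave the smallest p of any member with the shRNA. It was 5.12, 5.21 and 5.29 with the shRNA, against 5.67, 5.76 and 5.72 with GFP. No shRNA value reached the GFP values, nor the full-length (5.93, 5.58, 5.79) or deleted-construct values (5.37, 5.53, 5.58). The log2 difference was -0.51 ± 0.14 (SE) from GFP, 0.703 of the GFP level (limma, adjusted p = 0.780). It ranged from -0.55 to -0.47 when 1 array at a time was left out, always without a call. Against full-length MED12 it was -0.56 ± 0.14 (SE; limma, adjusted p = 0.348). The deleted construct also lay below GFP in every array, at -0.22 ± 0.14 (SE; limma, adjusted p = 1.00).

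DDIT3, which encodes the stress factor CHOP, was 4.89, 4.78 and 4.97 with full-length MED12, 4.36, 4.66 and 4.64 with the deleted construct and 4.22, 4.56 and 4.45 with the shRNA, against 4.37, 4.92 and 4.68 with GFP. The full-length arrays lay above every deleted-construct array and every shRNA array, and overlapped GFP. The shRNA minus full-length difference was -0.47 ± 0.18 (SE; limma, adjusted p = 0.615). ATF5, a factor whose translation likewise depends on eIF2, had -0.28 with the shRNA relative to GFP, and CEBPB, a further C/EBP partner, had -0.26. They were -0.01 without GFP replicate 1 and -0.06 without shRNA replicate 1. NUPR1, a stress-induced chromatin protein, had 0.16 with the shRNA and -0.03 without GFP replicate 2. All 6 factors had a positive log2 difference between full-length MED12 and GFP, with a median of 0.13, where 48.9% of all genes did. They also had one between full-length and deleted MED12, with a median of 0.23, where 49.9% of all genes did. Both sets of differences share the full-length arrays. Without full-length replicate 1, 3 of the 6 stayed above 0 against GFP and 5 of the 6 against deleted MED12.

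The feedback and stress genes held the member with the largest difference. DDIT4, which encodes the mTORC1 inhibitor REDD1, was 5.08, 4.94 and 4.86 with full-length MED12, against 3.65, 4.44 and 4.35 with GFP. With the deleted construct it was 4.21, 4.21 and 4.12, and with the shRNA 3.40, 4.26 and 3.38. All full-length arrays therefore lay above all 9 others, while the deleted construct overlapped GFP and the shRNA overlapped both. The full-length minus GFP difference was 0.81 ± 0.26 (SE), a 1.76-fold higher level (limma, adjusted p = 1.00). The low GFP value belongs to replicate 1, the array with the narrow spread, and without it the difference was 0.56. Full-length minus deleted was 0.78 ± 0.26 (SE; limma, adjusted p = 1.00), which uses no GFP array. The shRNA minus GFP difference was -0.47, and lay between -0.76 and -0.32 when 1 array at a time was left out.

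The widest gap for DDIT4 was between the shRNA and full-length MED12. It was -1.28 ± 0.26 (SE), or 2.43-fold lower with the shRNA (limma, adjusted p = 0.170), with all 3 shRNA arrays below all full-length arrays. Without shRNA replicate 2, the highest of its group, the difference was -1.57 and was called (limma, adjusted p = 0.0274). The adjusted p lay between 0.0274 and 0.564 over the 12 fits that each left out 1 array.

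CHAC1, a glutathione-degrading enzyme and a sensitive ATF4 target, was 4.34, 4.04 and 4.35 with the shRNA, against 3.71, 3.61 and 3.85 with GFP. Every shRNA value exceeded every GFP value, with a log2 difference of 0.52 ± 0.25 (SE; limma, adjusted p = 0.996). The full-length arrays, at 3.89, 4.45 and 3.68, and the deleted-construct arrays, at 4.17, 3.72 and 3.27, both overlapped GFP. CHAC1 and CEBPG thus differed from GFP in opposite directions in the same shRNA arrays.

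TRIB3, a pseudokinase that binds ATF4 and damps it, was 3.35, 3.33 and 3.57 with the deleted construct, against 3.60, 3.58 and 3.62 with GFP. The groups did not overlap, and the difference was -0.18 ± 0.14 (SE; limma, adjusted p = 1.00). With full-length MED12 it was 3.76, 3.62 and 3.77, and with the shRNA 3.79, 3.69 and 3.48. STC2, a secreted glycoprotein, had 0.37 ± 0.21 (SE) with full-length MED12 relative to GFP, above every GFP array. PPP1R15A, the phosphatase subunit GADD34 that reverses eIF2 phosphorylation, had 0.33 with the deleted construct and 0.0097 without GFP replicate 1. It was 4.33, 5.05 and 5.23 with the deleted construct, each above its same-numbered GFP array at 3.91, 4.82 and 4.90. SESN2, a leucine sensor of the mTORC1 pathway, had -0.13 with full-length MED12 and 0.04 without GFP replicate 1. VLDLR, a lipoprotein receptor, had 0.22 with the shRNA and 0.06 without shRNA replicate 2.

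**Figure D2:**
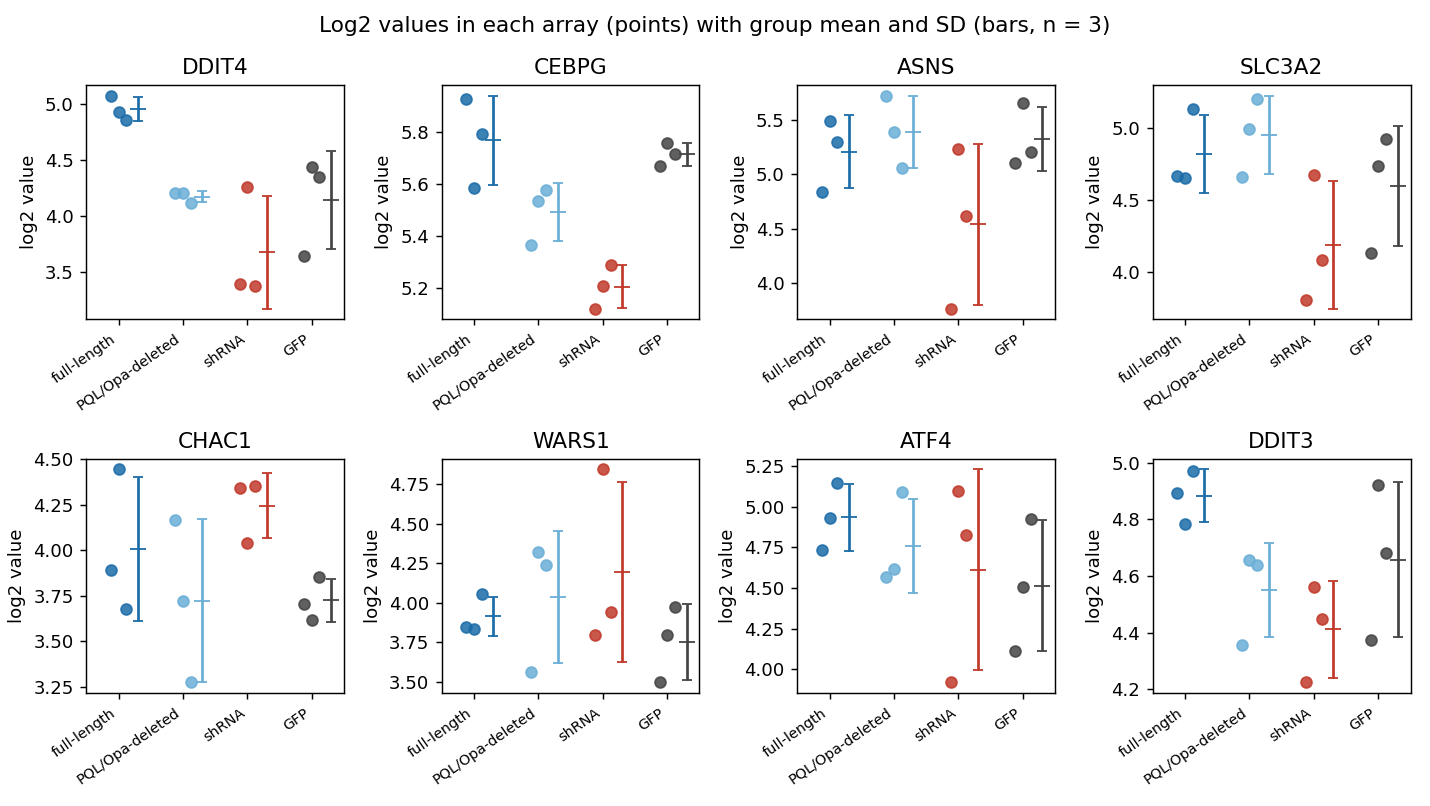
Log2 value of 8 members in each array (points, 3 per group) with the group mean and SD (bars), for full-length MED12, PQL/Opa-deleted MED12, the shRNA and GFP; each panel has its own log2 axis, which does not start at 0. DDIT4 shows its 3 full-length arrays above the other 9, CEBPG its 3 shRNA arrays below the other 9, and WARS1 a single high shRNA array at 4.84.

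Of the 8 measured enzymes of amino acid synthesis and the folate cycle, 6 lay above GFP with full-length MED12, 4 with the deleted construct and 3 with the shRNA. The shares of all genes were 48.9%, 49.0% and 55.9%. Of the 8, 0 were called (limma). ASNS, asparagine synthetase and a textbook ATF4 target, was 3.76, 5.24 and 4.62 with the shRNA, against 5.10, 5.66 and 5.21 with GFP. The groups overlapped because shRNA replicate 2 lay within the GFP range. The log2 difference was -0.78 ± 0.34 (SE), 0.581 of the GFP level (limma, adjusted p = 0.983). It was -0.39 without shRNA replicate 1, which had the narrowest overall spread, and -1.13 without shRNA replicate 2. ASNS was 4.83, 5.49 and 5.30 with full-length MED12 and 5.72, 5.39 and 5.06 with the deleted construct, both overlapping GFP. The ASNS promoter shown earlier, with its element 68 bases before the start, belongs to a gene with its lowest group mean, 4.54, in the shRNA arrays, while CHAC1, which holds the element too, had its highest group mean, 4.25, there.

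SHMT2, the mitochondrial serine hydroxymethyltransferase, was 4.61, 5.24 and 5.24 with the deleted construct, against 4.15, 4.64 and 4.72 with GFP, a difference of 0.53 ± 0.26 (SE; limma, adjusted p = 1.00). PSAT1, a phosphoserine aminotransferase, was 4.07, 4.47 and 4.14 with the deleted construct and lay between 3.37 and 4.36 with GFP. The difference of 0.42 was 0.20 without GFP replicate 2. With the shRNA PSAT1 was 4.28, 4.11 and 3.90, a difference from GFP of 0.29. This lay between 0.065 and 0.56 when 1 array at a time was left out. CTH, which makes cysteine from cystathionine, lay below the GFP mean in all perturbed groups, at -0.26, -0.23 and -0.35 in the order full-length, deleted and shRNA; the 3 differences share the GFP arrays, and its mean of 2.85 over all arrays was the lowest of the members. MTHFD2, a mitochondrial folate enzyme, was below every GFP array in the shRNA arrays, with a difference of -0.21 ± 0.20 (SE). PHGDH, which starts serine synthesis, stayed between 3.82 and 4.30 in all arrays, CBS, which feeds CTH, between 3.32 and 3.69, and PCK2, the mitochondrial PEP carboxykinase, between 3.59 and 3.95.

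The 4 amino acid transporter genes encode the cystine carrier SLC7A11, the large neutral amino acid carrier SLC7A5, their shared heavy chain SLC3A2, and the cationic amino acid carrier SLC7A1. SLC3A2 was 3.81, 4.67 and 4.09 with the shRNA, against 4.67, 4.65 and 5.13 with full-length MED12. Only shRNA replicate 2 reached the full-length range, and the difference was -0.63 ± 0.27 (SE; limma, adjusted p = 0.678). Against GFP (4.13, 4.73 and 4.92) the shRNA difference of SLC3A2 was -0.41 ± 0.27 (SE; limma, adjusted p = 1.00), and -0.22 without shRNA replicate 1. SLC7A1 lay above every GFP array with full-length MED12, at 0.30 ± 0.19 (SE), and SLC7A5 did so with the deleted construct, at 0.17 ± 0.13 (SE; limma, adjusted p = 1.00 for both). With the deleted construct SLC7A1 was 3.14, 3.77 and 3.70, against 2.99, 3.25 and 3.36 with GFP. All 4 transporters had a positive difference between the deleted construct and GFP, with a median of 0.25, where 49.0% of all genes did. SLC7A11 was above by 0.01, and without GFP replicate 1 its difference was -0.23, which left 3 of the 4 above 0.

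Among genes of tRNA charging and export, WARS1, the tryptophanyl-tRNA synthetase, is also known as an interferon-induced gene. It was 3.79, 4.84 and 3.94 with the shRNA, against 3.50, 3.79 and 3.97 with GFP. Replicate 2 alone lay outside the GFP range, and the difference of 0.44 ± 0.28 (SE; limma, adjusted p = 1.00) was 0.11 without it. In the same arrays interferon-stimulated genes rose. Of the 17 measured, 8 were called higher with the shRNA and 0 lower, where 0.0681% of all rows were called. Their median was 1.45, against 0.03 over all genes. RSAD2, an antiviral enzyme, had 2.60 ± 0.22 (SE; limma, adjusted p = 0.00117) and IFI44, a further interferon-induced gene, 2.49 ± 0.16. Per array their median over the GFP mean was 1.21, 1.89 and 1.51 in shRNA replicates 1, 2 and 3. Replicate 2 thus stood highest for both WARS1 and the interferon list. It was also the highest shRNA array for XPOT (4.72), NARS1 (6.38) and AARS1 (4.76), and the lowest for CHAC1 (4.04) and GARS1 (2.79). Replicate 2 also had the widest spread of all arrays, with an SD of 1.60. The part of the interferon response in the WARS1 value was not tested.

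SARS1, the seryl-tRNA synthetase, was 4.90, 5.49 and 5.66 with the deleted construct, against 4.66, 4.90 and 5.07 with GFP, a difference of 0.47 ± 0.26 (SE; limma, adjusted p = 1.00). AARS1, the alanyl-tRNA synthetase, was 4.40, 4.58 and 4.63 with full-length MED12, above GFP at 3.88, 4.32 and 4.34 in every array, a difference of 0.36 ± 0.24 (SE) that was 0.21 without GFP replicate 1. NARS1, for asparagine, had -0.51, EPRS1, for glutamate and proline, -0.35, and XPOT, the tRNA export receptor, -0.36 with the shRNA relative to GFP. NARS1 was -0.27 without shRNA replicate 1, EPRS1 -0.22 without shRNA replicate 3 and XPOT -0.11 without GFP replicate 3 but -0.80 without shRNA replicate 2. XPOT was 3.38, 4.72 and 3.41 in those arrays, with replicate 2 again far above the other 2. GARS1, the glycyl-tRNA synthetase, spread widely within groups, between 2.79 and 4.22 with the shRNA, and its difference between full-length MED12 and GFP, -0.28, was 0.03 without full-length replicate 3.

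**Figure D3:**
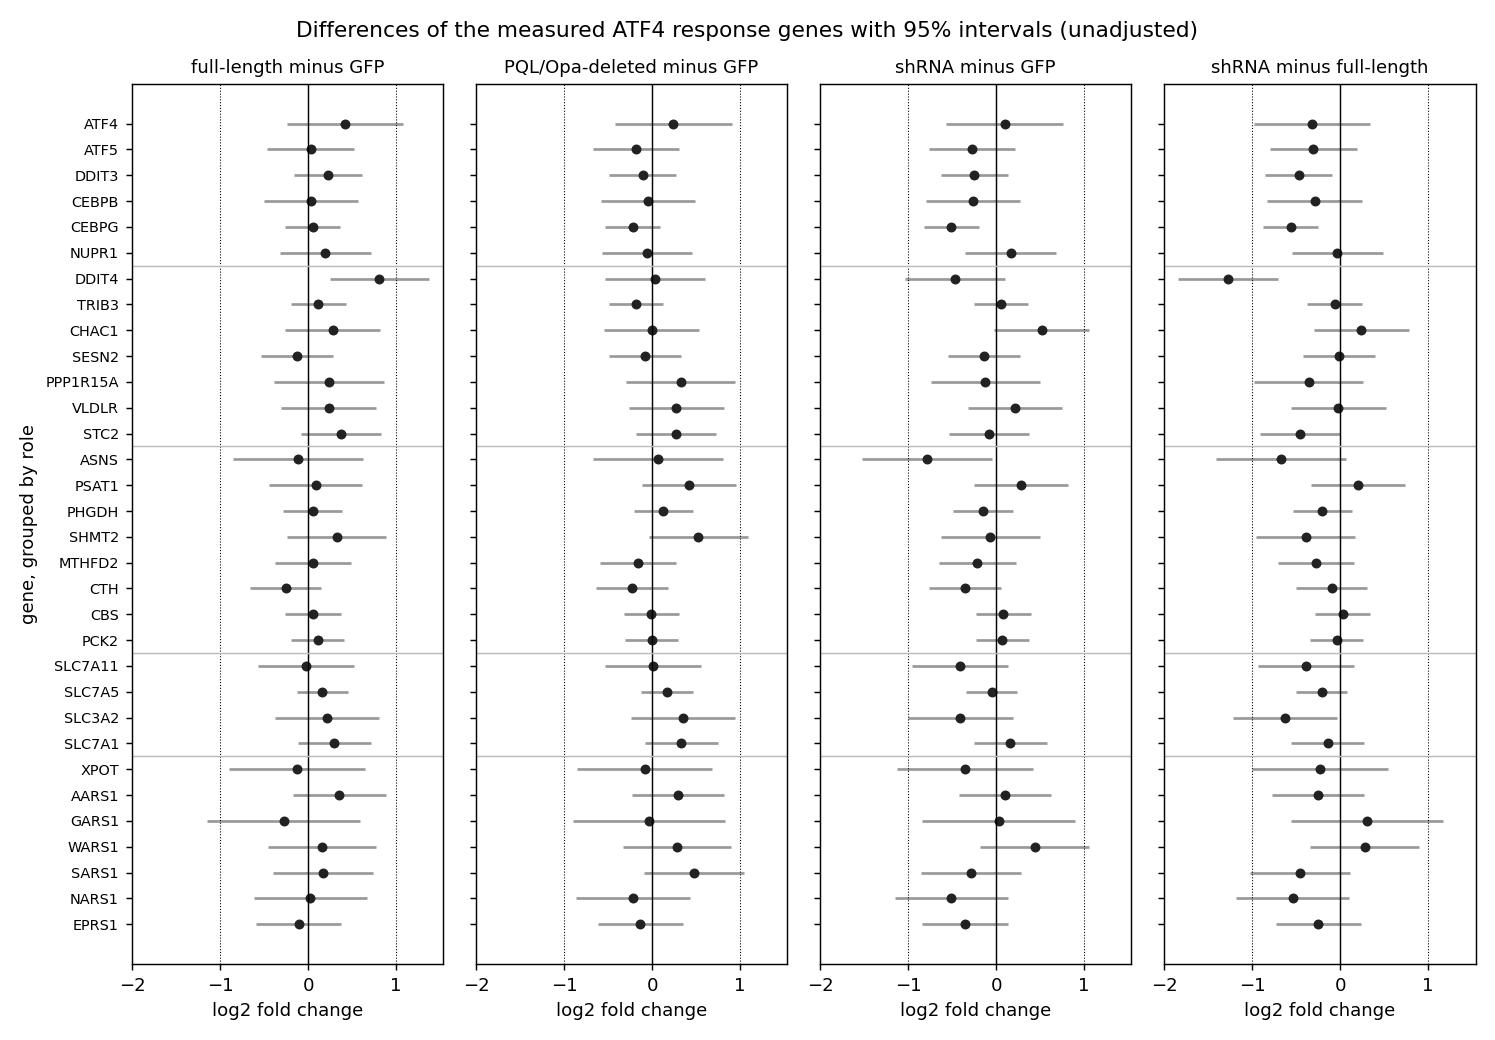
Log2 fold change (points) with its unadjusted 95% interval (bars) for each of the 32 members in 4 comparisons; the solid line marks no difference and the dotted lines a 2-fold change either way. Intervals clear of 0 are those of DDIT4 with full-length MED12, CEBPG and ASNS with the shRNA, and DDIT4, CEBPG, DDIT3 and SLC3A2 for the shRNA minus full-length MED12.

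Counted together, 25 of the 32 members lay above 0 for full-length MED12 minus GFP, where 48.9% of all genes did. The median of the members was 0.11 against -0.0045 over all genes. All members but SESN2, SLC7A1 and CTH were brighter than the median of all rows. The shares of all genes given here are therefore not matched for brightness, and the part of brightness in the counts was not tested. After quantile normalization, which gives all arrays the same spread, 21 of 32 lay above 0 and the median was 0.09. Called rows were 0.0136% of all rows in this comparison. At an unadjusted p under 0.05, 1 member was higher (DDIT4) and 0 were lower, against 1.12% and 0.583% of genes. In 4 members (DDIT4, STC2, SLC7A1 and AARS1) all full-length arrays lay above all GFP arrays, and in 0 below, where the shares of genes were 3.63% and 2.73%.

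With the PQL/Opa-deleted construct 16 of 32 lay above 0 (49.0% of genes), with a median of 0.0056 against -0.0043 over all genes. Called rows were 0.00454% of all rows, and 0 members were higher and 0 lower at an unadjusted p under 0.05, against 1.2% and 0.717% of genes. Groups did not overlap in 3 members, SLC7A5 above and TRIB3 and CEBPG below, where the shares of genes were 3.72% above and 2.94% below. Between full-length and deleted MED12 16 of 32 lay above 0 (49.9% of genes) and called rows were again 0.00454%. At an unadjusted p under 0.05, 1 member was higher (DDIT4) and 0 were lower, against 0.773% and 0.464% of genes. All full-length arrays were above all deleted-construct arrays in 4 members, DDIT4, DDIT3, TRIB3 and CEBPG, and below in 0, where the shares of genes were 3.67% and 2.81%. On the negative side, PSAT1 at -0.33, SARS1 at -0.30, SHMT2 at -0.20 and GARS1 at -0.24 had the lowest p-values, and none was called (limma). GARS1 turned to 0.08 without deleted-construct replicate 1, SARS1 was -0.11 without full-length replicate 1 and SHMT2 -0.09 without full-length replicate 2.

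With the shRNA 12 of 32 lay above 0 relative to GFP (55.9% of genes), with a median of -0.13 against 0.03 over all genes. Called rows were 0.0681%. At an unadjusted p under 0.05, 0 members were higher and 2 lower (CEBPG and ASNS), where the shares of genes were 2.16% and 2.27%. Groups did not overlap in CHAC1 (above) and in CEBPG and MTHFD2 (below), where the shares of genes were 4.85% above and 3.9% below.

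The shRNA minus full-length comparison, which uses no GFP array, had 5 of 32 members above 0 (56.5% of genes; 8 without shRNA replicate 1 and 9 without shRNA replicate 3) and a median of -0.25 against 0.04 over all genes. Called rows were 0.104%. At an unadjusted p under 0.05, 4 members were lower (DDIT4, CEBPG, DDIT3 and SLC3A2) and 0 higher, where 3.9% of genes were lower and 2.49% higher. All shRNA arrays lay below all full-length arrays in 7 members, DDIT4, CEBPG, DDIT3, STC2, MTHFD2, SLC7A5 and PPP1R15A, and above in 0, against 6.05% and 6.29% of genes. The members above 0 with the lowest p-values were WARS1 at 0.28, CHAC1 at 0.24, PSAT1 at 0.20 and GARS1 at 0.31. WARS1 turned to -0.05 without shRNA replicate 2 and GARS1 to -0.0035 without full-length replicate 3, and CHAC1 was 0.08 without full-length replicate 3 and PSAT1 0.11 without shRNA replicate 1. The differences of the shRNA and of full-length MED12 from each other and from GFP share arrays, so these counts are not separate observations.

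The spread of an array's values moved with the level of the members. The members' median difference to the GFP average was -0.21, 0.05 and -0.14 in shRNA replicates 1, 2 and 3, and 0.15, 0.11 and 0.17 in the full-length arrays. It was -0.04, 0.05 and 0.08 with the deleted construct, against -0.15, 0.05 and 0.08 with GFP. The 4 arrays below 0 were the 4 with the narrowest spread, with SDs of 1.34 to 1.47, and the other 8 had SDs of 1.51 to 1.60. In those 4 narrow arrays the median over all genes lay above 0. It was 0.10 and 0.02 in shRNA replicates 1 and 3, 0.08 in GFP replicate 1 and 0.07 in deleted-construct replicate 1. Among the other 8 it lay above 0 only in full-length replicate 1 (0.02). Without the 3 narrowest arrays the median member difference was 0.06 for full-length MED12 and -0.09 for the shRNA, each minus GFP, and -0.20 for the shRNA minus full-length MED12. The last was -0.22 after quantile normalization. Of the 8 wider arrays, the 3 full-length ones were the highest. The part of array spread in the members' differences was not tested beyond these values.

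**Figure D4:**
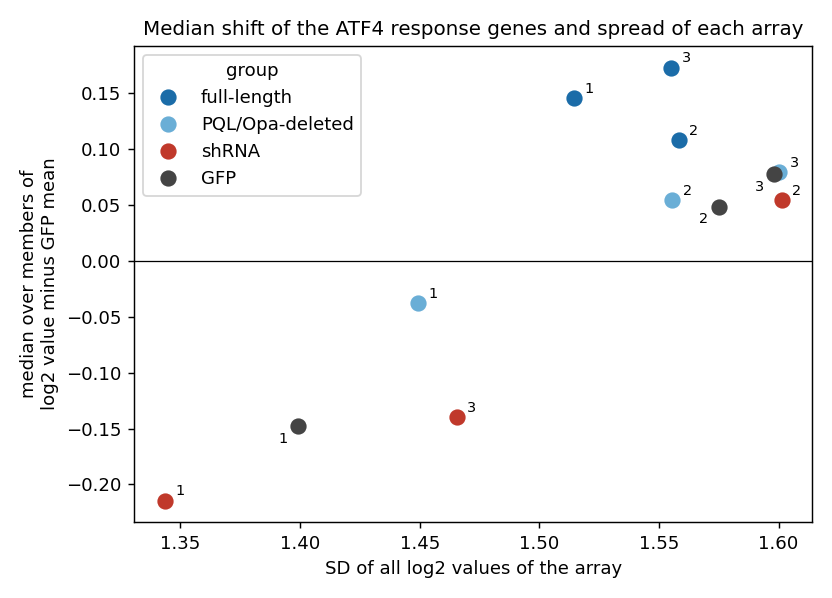
Median difference of the 32 members to their GFP averages, in log2 units (vertical axis) against the SD of all log2 values of the array (horizontal axis), 1 point per array, numbered by replicate and coloured by group. The 4 arrays with an SD under 1.5 lie below 0, and the 3 full-length arrays lie highest, at 0.11 to 0.17.

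Genes upstream of ATF4 were examined next, from lists chosen by name with earlier results of these data known. Of 6 measured eIF2 kinases and GCN2 regulators, 0 were called in any comparison with GFP (limma), and 0 had an unadjusted p under 0.05. EIF2AK2, which encodes PKR, a double-stranded RNA sensor that interferon induces, had 0.29 ± 0.26 (SE) with the shRNA relative to GFP. EIF2AK3, which encodes PERK, had -0.19 and IMPACT, an inhibitor of GCN2 activation, -0.36 with the shRNA. EIF2AK2 was 0.12 without GFP replicate 1 and IMPACT -0.14 without shRNA replicate 1. EIF2AK4, which encodes GCN2 itself, had 0.24 with full-length MED12. Of the 12 eIF2, eIF2B and phosphatase subunit genes, 0 were called, and the medians were 0.15 with full-length MED12, 0.09 with the deleted construct and -0.18 with the shRNA. The phosphatase subunits PPP1CC and PPP1CA had 0.48 with full-length and 0.28 with deleted MED12, while PPP1CB had -0.30 and EIF2B3, a subunit of the eIF2 exchange factor, -0.40 with the shRNA. The PPP1CC difference was 0.14 without GFP replicate 1, and that of PPP1CA 0.17 without deleted-construct replicate 3.

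Further targets and relatives of the members had no call either. In the 25 measured genes of a list of other ATF4-linked targets, the medians of the difference from GFP were 0.12 with full-length MED12, 0.08 with the deleted construct and 0.01 with the shRNA. TNFRSF10B, a death receptor that CHOP is known to raise, had 0.48 ± 0.20 (SE) with the shRNA (limma, adjusted p = 0.983). Its mean was 4.03 with the shRNA, 3.93 with full-length MED12 and 3.88 with the deleted construct, against 3.55 with GFP. All these differences share the GFP arrays. CLGN, a chaperone of the endoplasmic reticulum, had -0.44 with the shRNA. SLC1A4, a carrier of small neutral amino acids, had 0.30 and SLC7A3, a cationic amino acid carrier, -0.33 with the deleted construct. Among 13 other cytosolic tRNA synthetase genes the medians were 0.08, 0.16 and -0.19 in the same order. TARS1, for threonine, had -0.65 ± 0.23 (SE; limma, adjusted p = 0.910) and LARS1, for leucine, -0.51 with the shRNA, while YARS1, for tyrosine, had 0.41 and FARSA, a subunit for phenylalanine, 0.31 with the deleted construct. YARS1 was 0.11 without GFP replicate 1, FARSA 0.13 without deleted-construct replicate 3 and LARS1 -0.32 without shRNA replicate 1. The YARS1 values with the deleted construct were 4.94, 5.67 and 5.71, each above its same-numbered GFP array at 4.41, 5.40 and 5.26.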

How the data were processed

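RNA from each sample was amplified, biotin-labelled and read on a 1-colour array. The authors deposited log2 values; RMA, Partek and build hg18 appear in the submitters' processing notes. Software versions, background handling and filters: not given in the sources used here. The values were used as they stand, and 0 columns were left out. Of 22011 rows, 14432 carried 1 gene symbol, 2408 several and 5171 none. A model of 4 group means over 12 arrays was fitted to all rows with limma 3.58.1 in R 4.3.3, with two-sided tests and Benjamini-Hochberg adjustment at 0.05. All p-values come from limma. They set a difference against the row's spread among replicates, pooled over the 4 groups and moderated with that of all rows. The labels do not describe the separate cultures of the 3 biological replicates. An exact permutation test of 3 against 3 cannot go below 0.1. Named were the 4 members per direction with the lowest p in each comparison, the 4 lowest in the F test, and ATF4, DDIT3, TRIB3, ASNS, CHAC1 and WARS1. They are given by a difference, by array values or only by a range. Other lists gave 2 genes per direction against GFP, and EIF2AK2. Further members are given by ranges, or were named after their values were seen. The members and lists were chosen with earlier results of these data known. Deviations of same-numbered arrays correlated above 0.1 in every pair of full-length and GFP arrays (0.101 to 0.229) and of deleted-construct and GFP arrays (0.149 to 0.472). For shRNA and GFP arrays the correlation was 0.464, 0.269 and 0.022 in replicates 1, 2 and 3, so only replicate 3 fell below 0.1. Promoters came from RefSeq's table (29 of 35 members matched), on another build than the arrays' annotation, so no array row positions are given.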

Additional observations from a re-analysis of the deposited data

How the results depend on the processing

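Other settings, and the omission of each array in turn, were run. With the replicate block, 0 members were called in each comparison and in the F test, and the block changed no call; DDIT4 for the shRNA minus full-length MED12 had an adjusted p of 0.102 in limma. Array weights gave 13 members called for the shRNA minus GFP, 8 for the shRNA minus full-length MED12 and 16 by the F test, in a fit that called 25.9%, 15.4% and 28.9% of all rows in the same order, and the cause was not tested. Without 1 array at a time, 0 to 1 members were called for the shRNA minus full-length MED12 and 4 to 9 lay above 0, and the median for full-length minus deleted MED12 was 0.0023 to 0.0732. Without the 3 narrowest arrays, 8 members lay above 0 for the shRNA minus full-length MED12.

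Some differences changed sign. Without the 3 narrowest arrays, SESN2 had 0.04 and OAS2 0.0416 for full-length MED12 minus GFP, ATF5 0.0438 for deleted MED12 minus GFP, and GARS1 0.079 for full-length minus deleted MED12. With array weights, OAS2 had 0.0595 and ATF5 0.0979. Without 1 array at a time, the ranges for full-length MED12 minus GFP were -0.51 to 0.0317 for GARS1, -0.29 to 0.04 for SESN2, -0.28 to 0.0018 for EPRS1 and -0.20 to 0.04 for OAS2. They were -0.40 to 0.0831 for ATF5 (deleted MED12 minus GFP) and -0.47 to 0.08 for GARS1 (full-length minus deleted). For the shRNA minus full-length MED12 they were -0.0458 to 0.48 for WARS1 and -0.0035 to 0.72 for GARS1. The number of arrays limits the precision, and signal over background is not given in the sources used here.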

Other observations

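Other lists near the response held no called gene in any comparison with GFP (limma). Mitochondrial tRNA synthetase genes, which charge tRNAs inside mitochondria, lay below GFP in all 3 shRNA arrays in 5 of 12 measured, where 3.9% of genes did, with a median of -0.21. MARS2, for methionine, had -0.41 ± 0.14 (SE; limma, adjusted p = 0.910) and HARS2, for histidine, -0.45 ± 0.19 with the shRNA. MARS2 also lay below every GFP array (lowest 4.22) with full-length MED12 (3.95 to 4.14) and the deleted construct (4.13 to 4.21). All these differences share the GFP arrays. PARS2, for proline, had 0.45 and NARS2, for asparagine, 0.24 with full-length MED12, and PARS2 was 0.23 without GFP replicate 3.

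Among 11 other enzymes of serine, glycine and folate metabolism, AHCY, which clears S-adenosylhomocysteine, had 0.54 ± 0.23 (SE) with full-length MED12, 0.75 ± 0.23 with the deleted construct and 0.39 ± 0.23 with the shRNA relative to GFP. It was not called in any of these (limma, adjusted p = 1.00 in each). The 3 differences share the GFP arrays, of which replicate 1 was low at 3.06 against 3.55 and 3.89. Without it they were 0.32 with full-length MED12, 0.53 with the deleted construct and 0.17 with the shRNA. MAT2A, which makes S-adenosylmethionine, had 0.36 with full-length MED12 and -0.41 with the shRNA, and DLD, a subunit of the glycine cleavage system, -0.67 with the shRNA. The shRNA difference of MAT2A was -0.17 without shRNA replicate 1. Of 20 other amino acid transporter genes, SLC7A2 had 0.31 with the deleted construct and SLC36A4 -0.45 with the shRNA. Of 16 targets of the ATF6 and XBP1 branches of the unfolded protein response, HERPUD1 had 0.45 with full-length MED12 and -0.42 with the shRNA (-0.23 without GFP replicate 3), and with the deleted construct DNAJB9 had 0.33 and SDF2L1 -0.29. With full-length MED12, 13 of 17 interferon-stimulated genes lay above GFP (48.9% of all genes), with a median of 0.14. Of these 17, 0 were called (0.0136% of all rows). At an unadjusted p under 0.05 in limma, 4 were higher and 0 lower, where 1.12% and 0.583% of genes were. In 5 all full-length arrays lay above all GFP arrays (3.63% of genes). The lowest p-values among the genes below GFP were for DDX60 at -0.21 and OAS2 at -0.10. These were -0.01 and 0.04 without GFP replicate 1. With the deleted construct all 17 lay above GFP (49.0% of all genes), with a median of 0.38, and 0 were called (0.00454% of all rows). There 6 were higher at an unadjusted p under 0.05 (1.2% of genes), and 8 lay wholly above GFP (3.72% of genes).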
